A study of Mus musculus with 9 samples.

Results

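The serpins are a family of protease inhibitors and their relatives, and all 61 protein-coding mouse genes of the family named in the deposited table (Serpin, then a clade letter from a to i and a number) were taken as members, out of 54532 genes. The RNA came from flat mounts of choroid and retina of C57BL/6 mice, with 3 libraries in each of 3 groups. The BetP-Gel@Ran group (titled Betp-Gel@Ran) was taken 3 months after a gel was injected into the vitreous. The study concerns a hydrogel with ranibizumab, an antibody fragment against human VEGF-A, but the treatment label names only BetP-Gel. The CNV group carries sample titles for wet age-related macular degeneration, and the untreated group had no treatment. All animals were of the same strain. The labels give neither the way CNV was produced nor whether BetP-Gel@Ran mice had CNV, give no age, and give a time for the BetP-Gel@Ran group alone, so time and treatment cannot be told apart. They do not say that libraries of a group came from separate mice, so the p-values reflect only how these libraries spread, which may be technical.

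A typical serpin exposes a flexible loop that a protease cuts as if it were a substrate. The cut serpin then changes shape and holds the protease in a covalent complex, so each inhibitor molecule is used once. Some members have lost this activity and serve as hormone carriers, collagen chaperones or signalling proteins. Secreted serpins restrain blood clotting, fibrinolysis, complement and the proteases of leukocytes, while most clade B serpins act inside cells. In the eye the best known member is the product of Serpinf1, pigment epithelium-derived factor (PEDF), a non-inhibitory protein of the pigment epithelium that restrains vessel growth and supports neurons.

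The libraries held 16990118 to 18753737 reads on genes. Rpe65, a pigment epithelium gene, was at 66.8 to 73.0 FPKM in BetP-Gel@Ran, 58.3 to 96.4 in CNV and 59.5 to 112 in untreated libraries. Krt12, a corneal keratin gene, was at 3472 to 3561 FPKM in BetP-Gel@Ran, 1383 to 2246 in CNV and 4319 to 5313 in untreated libraries. Transcripts of the front of the eye were thus in the samples too. The 4 skeletal muscle markers summed to 385 to 471 FPKM in BetP-Gel@Ran, 277 to 490.0 FPKM in CNV and 2401 to 2634 FPKM in untreated libraries, and the 6 lens markers ran over 275 to 10885 FPKM within the untreated group. Fewer cells of a type and less RNA per cell cannot be told apart in any value below.

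Levels are in FPKM, which here scales fragments by gene length and by a size set for each library that differs from its reads on genes. They are given per library in the order of replicates 1, 2 and 3 or as mean ± SD (n = 3). Of the 61 members, 20 reached 1 FPKM in at least 3 libraries and were tested. The 41 others included 13 without a read in any library. Changes are differences of log2(FPKM + 1) with their SE, a scale that understates the change of low genes, tested with limma over 14086 genes at a Benjamini-Hochberg adjusted p of 0.05. In CNV against untreated samples, 6 of the 20 tested serpins were higher and 3 lower, beside 22.5% and 22.1% of all tested genes. In BetP-Gel@Ran against CNV samples, 1 was higher and 6 were lower, beside 5.81% and 8.27% of all tested genes. In BetP-Gel@Ran against untreated samples, 4 were higher and 4 lower, beside 16.1% and 18.1% (with FPKM divided by its sum, 4 and 2 serpins, beside 2646 and 1555 genes in all). Calls with a change of at least 1 numbered 5 higher and 1 lower in CNV against untreated samples, beside 3.87% and 4.27% of tested genes. They numbered 0 and 3 in BetP-Gel@Ran against CNV samples, beside 0.39% and 1.51%, and 2 and 1 in BetP-Gel@Ran against untreated samples, beside 1.06% and 2.31%. Without CNV replicate 3, 4 serpins were higher and 10 lower in BetP-Gel@Ran against CNV samples, and without any 1 of the 5 other libraries of these groups 3 were lower. Only 2 were higher in BetP-Gel@Ran against untreated samples without BetP-Gel@Ran replicate 3 or untreated replicate 2. The median change of the tested members was 0.19, -0.30 and -0.00 in the same 3 comparisons, and that of all tested genes was 0.01, 0.00 and -0.01. The 3 comparisons share libraries pairwise, so a rise over untreated and a fall against CNV are not independent of each other.

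**Figure D1:**
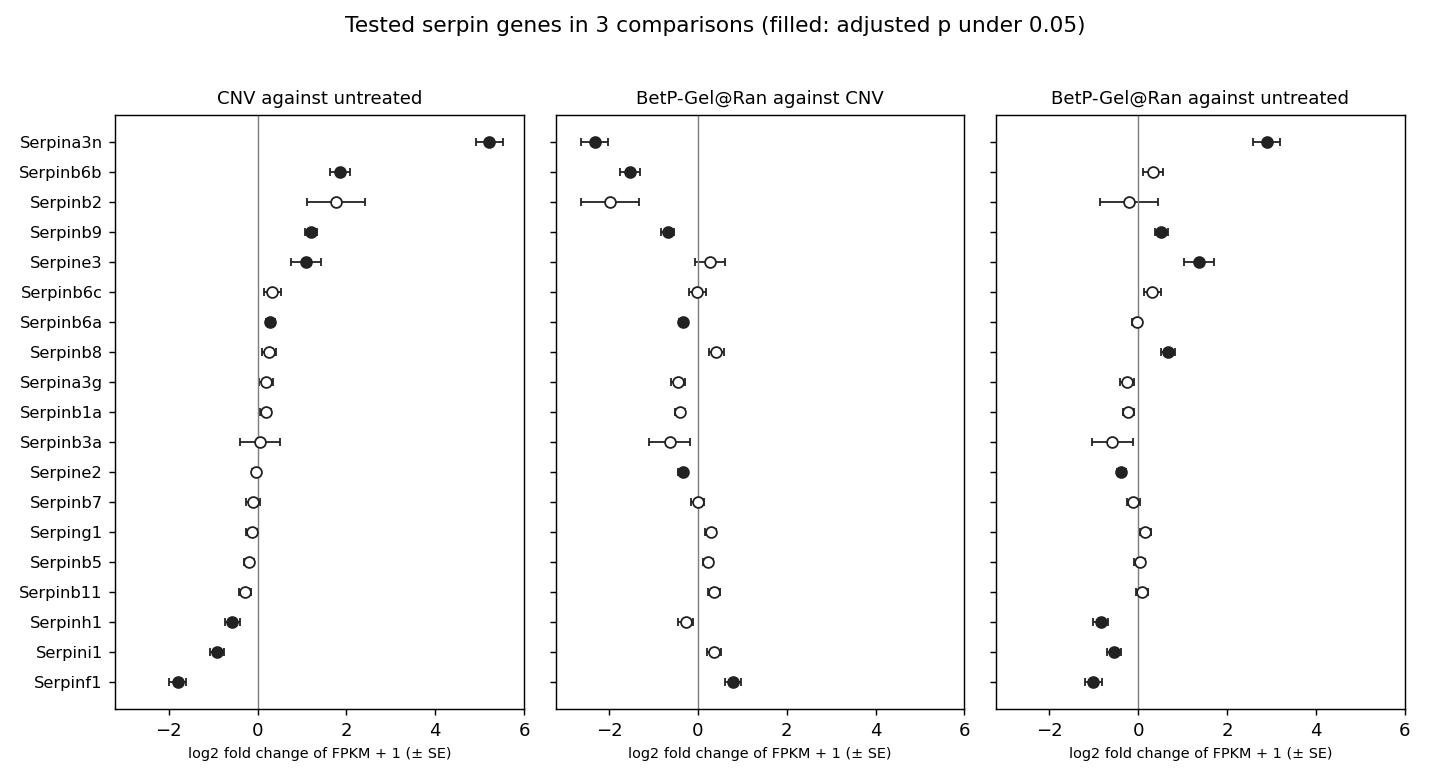
Change of 19 tested serpin genes (rows) on the log2(FPKM + 1) scale with its SE, in CNV against untreated, BetP-Gel@Ran against CNV and BetP-Gel@Ran against untreated samples; filled points have an adjusted p under 0.05. Serpina3n has the largest rise among them in CNV against untreated samples, at 5.22, and Serpinf1 the largest fall, at -1.80.

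Serpina3n dominated clade A. It encodes a secreted inhibitor related to human alpha-1-antichymotrypsin, made by reactive astrocytes and by liver in the acute phase, and the mouse protein inhibits granzyme B and leukocyte proteases. The gene (ENSMUSG00000021091) lies on the plus strand of mm10 chromosome 12, from 104406729 to 104414329. Its level was 52.9, 70.4 and 68.2 FPKM in BetP-Gel@Ran libraries, 290.2, 550.3 and 205 FPKM in CNV libraries, and 6.96, 8.08 and 7.92 FPKM in untreated libraries. The 3 groups did not overlap, with CNV highest and BetP-Gel@Ran between the others. The change was 5.22 ± 0.30 in CNV against untreated samples (limma adjusted p = 1.00e-05), the third largest rise of all 14086 tested genes. It was -2.32 ± 0.30 in BetP-Gel@Ran against CNV samples (limma adjusted p = 0.00498) and 2.90 ± 0.30 in BetP-Gel@Ran against untreated samples (limma adjusted p = 2.90e-04).

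Its share of the family differed between the groups. Serpina3n took 9.65 ± 1.41% of the summed FPKM of all 61 members in BetP-Gel@Ran, 36.1 ± 10.5% in CNV and 1.02 ± 0.12% in untreated libraries. By mean level it was the fourth member in BetP-Gel@Ran, the first in CNV and the eleventh in untreated samples. The sum of the 60 other members was 599 ± 52.1 FPKM in BetP-Gel@Ran, 578 ± 26.6 in CNV and 748 ± 42.0 in untreated libraries. That sum was higher in each untreated library than in any other library. Serpinf1, included in it, averaged 124 FPKM in BetP-Gel@Ran, 72.6 in CNV and 251 in untreated libraries. Clade B, also included, summed to 285 ± 29.9, 313 ± 35.4 and 285 ± 13.7 FPKM in the same groups.

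**Figure D2:**
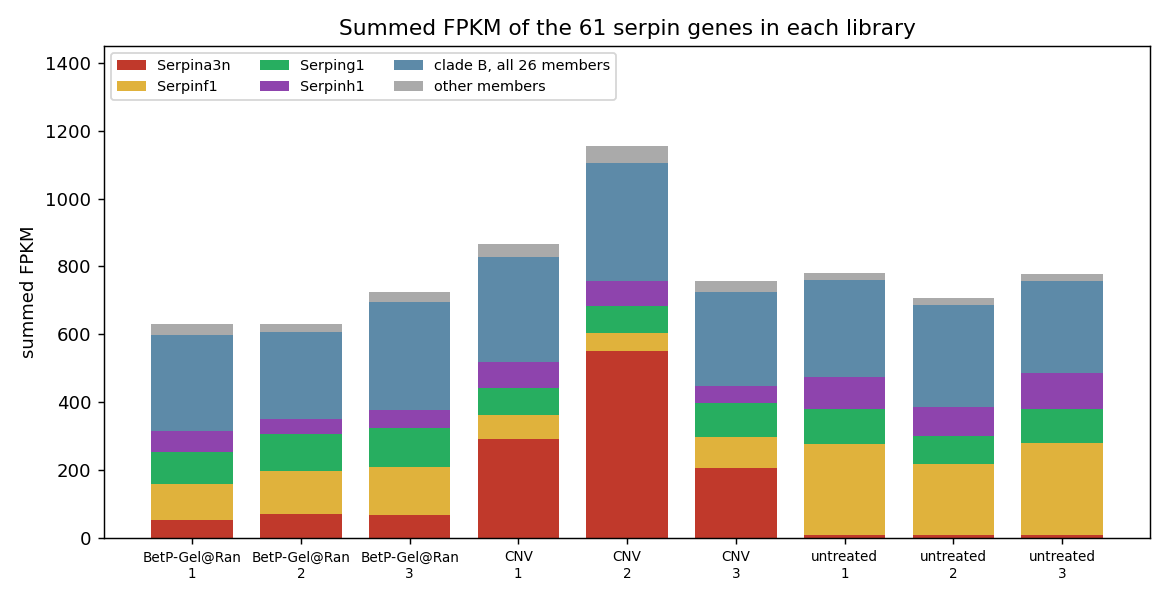
Summed FPKM of the 61 serpin genes in each of the 9 libraries (bars, from 0), split into Serpina3n, Serpinf1, Serping1, Serpinh1, the clade B members and all other members. Serpina3n takes 27.1% to 47.7% of each CNV bar, and Serpinf1 takes 29.6% to 35.0% of each untreated bar.

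The other 23 clade A genes did not share this level. Of the clade, 23 genes including Serpina3n lie within 1 cluster on chromosome 12, from 103614786 to 104414329, and Serpina7, which encodes a thyroid hormone carrier, lies on the X chromosome. The 23 others together summed to 4.34 ± 0.34 FPKM in BetP-Gel@Ran, 5.83 ± 1.52 in CNV and 3.68 ± 0.69 in untreated libraries. Only Serpina3g passed the filter besides Serpina3n, and 7 of the 23 had no read in any library. Serpina3g, which encodes an intracellular inhibitor of cysteine proteases in mouse lymphocytes, was at 1.11, 1.21 and 1.73 FPKM in BetP-Gel@Ran libraries, 2.52, 2.44 and 1.68 in CNV libraries, and 1.43, 2.27 and 1.74 in untreated libraries. Its groups overlapped and it was not called in any comparison (limma adjusted p = 0.340 in CNV against untreated, 0.0806 in BetP-Gel@Ran against CNV and 0.226 in BetP-Gel@Ran against untreated samples). Serpina3c, below the filter, was at 0.670 to 1.13 FPKM in BetP-Gel@Ran, 0.644 to 1.48 FPKM in CNV and 0.639 to 0.865 FPKM in untreated libraries.

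Below the filter, Serpina3i and Serpina3m had higher mean values in CNV than in BetP-Gel@Ran or untreated libraries. Serpina3j and Serpina3k, which lie between Serpina3i and Serpina3n, had at most 3 reads over the libraries of any group. Serpina3i was at 0.180, 0.0996 and 0.371 FPKM in BetP-Gel@Ran libraries, 0.749, 1.26 and 0.723 in CNV libraries, and 0.238, 0.0506 and 0.139 in untreated libraries, from 25, 112 and 16 reads in all. Serpina3m, the neighbour of Serpina3n, had 13 reads over the BetP-Gel@Ran libraries, 49 over the CNV libraries and none over the untreated libraries. Taking 3 reads in each untreated library as the floor, its mean FPKM was at least 5.07-fold higher in CNV than in untreated libraries, counting error only. The CNV libraries held 13, 33 and 3 of its reads. Replicate 3 was thus at the floor itself, and the bound rests on the other CNV libraries. The values of Serpina3i and Serpina3m are both uncertain. Serpina3m overlaps Serpina3k on the same strand. Of the 31-base words in transcripts, 35.0% in those of Serpina3m and 27.3% in those of Serpina3i also occur in other genes (GENCODE M21). For Serpina3n the share is 21.6%. The words it shares with other members are all in other Serpina3 genes, at most 5.90% of its words with any single one, and those genes were all far lower.

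**Figure D3:**
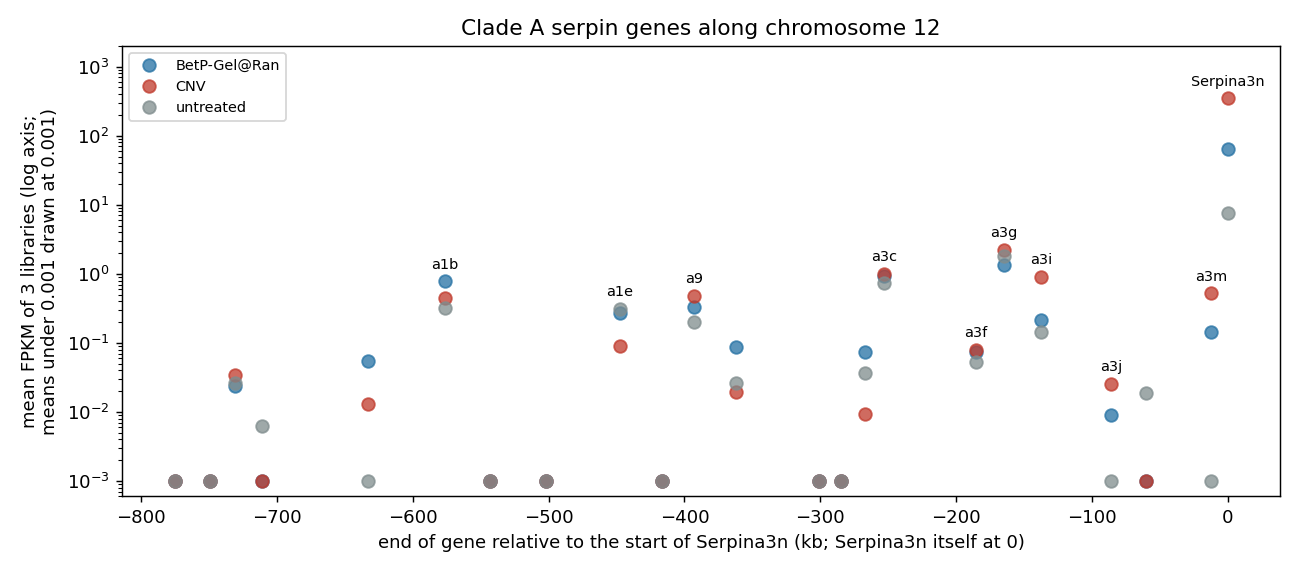
Mean FPKM of 3 libraries (log axis, means under 0.001 drawn at 0.001) of the 23 clade A genes on chromosome 12, against the distance from the end of each gene to the start of Serpina3n in kb. Serpina3n stands at 63.8 FPKM in BetP-Gel@Ran, 349 in CNV and 7.65 in untreated samples, while the second gene by level, Serpina3g, lies between 1.35 and 2.21 FPKM in the 3 groups.

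Start sites of this cluster are shown because similar DNA in the pair of Serpina3n and Serpina3c went with unequal levels. RefSeq promoters (GRCm38.p6, 250 bases before to 50 after the start) were found for 52 of the 61 members and 17 of the 20 tested ones. The promoter of Serpina3n (chr12:104406458-104406757, plus strand) was 89.9% identical over 306 aligned positions to that of Serpina3c (chr12:104153823-104154122, minus strand), the closest among the Serpina3 promoters held. The other Serpina3 promoters held were 36.7% to 68.6% identical to that of Serpina3n. Serpina3f was at 61.95% or 36.7% by the annotated start used, so these values depend on the start as well as on the DNA. For the pair of Serpina3n and Serpina3c, capitals mark the 19 substituted positions and, in each, 6 bases without a partner.
Serpina3n: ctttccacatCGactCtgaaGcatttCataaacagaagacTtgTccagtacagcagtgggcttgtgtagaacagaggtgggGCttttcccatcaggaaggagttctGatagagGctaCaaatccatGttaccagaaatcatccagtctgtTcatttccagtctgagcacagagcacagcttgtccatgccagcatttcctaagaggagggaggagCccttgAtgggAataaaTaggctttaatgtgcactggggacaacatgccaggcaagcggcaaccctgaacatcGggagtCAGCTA
Serpina3c: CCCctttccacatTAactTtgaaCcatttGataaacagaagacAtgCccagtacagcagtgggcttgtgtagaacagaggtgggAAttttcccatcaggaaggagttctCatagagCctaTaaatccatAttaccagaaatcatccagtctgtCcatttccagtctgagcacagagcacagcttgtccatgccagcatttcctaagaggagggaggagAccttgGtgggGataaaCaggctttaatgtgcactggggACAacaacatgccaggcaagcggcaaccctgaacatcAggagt
Their levels differed by far more than the spread between libraries, with 349 ± 179.8 FPKM for Serpina3n and 0.991 ± 0.437 FPKM for Serpina3c in CNV libraries. A search of both strands for the letters TTCNNNGAA, which STAT factors can bind, found them in neither. They were in 8.30% of all 32851 promoters, or for 9.55% of genes with one, and for 8 of the 52 members. Among the Serpina3 genes they were in the promoters of Serpina3f, Serpina3g and Serpina3i. Those of the higher pair are shown, Serpina3g (chr12:104235897-104236196, plus strand) and Serpina3i (chr12:104262872-104263171, plus strand), with the match in capitals.
Serpina3g: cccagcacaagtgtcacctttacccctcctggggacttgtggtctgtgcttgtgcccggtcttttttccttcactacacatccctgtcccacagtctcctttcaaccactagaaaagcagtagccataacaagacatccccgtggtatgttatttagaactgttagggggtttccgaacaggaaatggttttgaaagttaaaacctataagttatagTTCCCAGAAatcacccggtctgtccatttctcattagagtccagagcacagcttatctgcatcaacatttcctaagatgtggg
Serpina3i: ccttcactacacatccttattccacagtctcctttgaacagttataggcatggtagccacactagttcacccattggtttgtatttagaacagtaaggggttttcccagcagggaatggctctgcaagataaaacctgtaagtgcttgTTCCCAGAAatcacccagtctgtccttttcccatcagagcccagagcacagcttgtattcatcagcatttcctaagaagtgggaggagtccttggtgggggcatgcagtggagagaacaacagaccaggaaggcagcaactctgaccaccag
In an alignment with Serpina3i, the stretch of Serpina3n opposite this match read ttaccagaa, against ttcccagaa in Serpina3i. Serpina3g, not called in any comparison, held the letters 33 bases before its start. A missing match says only that these letters are not in this window.

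Sums of macrophage and microglia markers ranked the 3 groups as Serpina3n did. Neutrophil sums were highest in CNV but overlapped between BetP-Gel@Ran and untreated libraries, and glial markers went in several directions. The 7 neutrophil markers summed to 16.6 to 126 FPKM in BetP-Gel@Ran, 328 to 787 in CNV and 25.3 to 40.5 in untreated libraries. All 6 tested were higher in CNV than in untreated samples. CNV replicate 2 was highest for their sum, as for Serpina3n. The match was not particular to neutrophil markers. Within the CNV group, replicate 2 was also highest for macrophage and microglia, glial, liver, pigment epithelium and erythroid sums. It was not highest for the other cell type lists. Erythroid markers summed to 5776, 17739 and 6857 FPKM in the CNV libraries. Among the neutrophil markers Ly6g stayed under 1 FPKM in every library and was at 0 in 2 of the BetP-Gel@Ran and 2 of the untreated libraries. Of the 6 tested neutrophil markers, all were lower in BetP-Gel@Ran than in CNV samples, and 1 was higher in BetP-Gel@Ran than in untreated samples. The sums of BetP-Gel@Ran replicates 1 and 2, at 16.6 and 17.8 FPKM, lay below every untreated library. The largest part was S100a9, at 7.65 and 8.81 FPKM in these 2 and 19.7 to 31.4 in untreated libraries. Csf3r and Retnlg went the other way. They were at 0.933 to 1.57 and 1.29 to 2.80 FPKM in BetP-Gel@Ran, and 0.131 to 0.446 and 0.199 to 0.570 in untreated libraries. The other markers of the list overlapped between these groups. Macrophage and microglia markers summed to 726 to 933 FPKM in BetP-Gel@Ran, 1299.5 to 1900 in CNV and 369 to 393 in untreated libraries, and all 7 were higher in CNV than in untreated samples. The 7 markers of Müller glia and astrocytes summed to 636 to 684 FPKM in BetP-Gel@Ran, 535 to 618 FPKM in CNV and 865 to 921 FPKM in untreated libraries. Of these 7, 4 were higher and 1 lower in CNV against untreated samples, 1 was higher and 1 lower in BetP-Gel@Ran against CNV samples, and 2 were higher and 2 lower in BetP-Gel@Ran against untreated samples. Aqp4, a water channel gene of glia, had changes of 2.84 in CNV against untreated and -2.55 in BetP-Gel@Ran against CNV samples, both called. Gfap, the glial filament gene, had a change of 1.15 in CNV against untreated samples, called, and of 0.16 in BetP-Gel@Ran against CNV samples, not called. Glul, the glutamine synthetase gene, had a change of -1.19 in CNV against untreated samples and was called lower. The 8 liver markers summed to 6.71 to 10.7 FPKM in BetP-Gel@Ran, 13.9 to 20.3 FPKM in CNV and 5.92 to 6.91 FPKM in untreated libraries. Most of this was Trf, the transferrin gene, at 7.95 ± 1.53 FPKM in BetP-Gel@Ran, 15.1 ± 3.91 in CNV and 4.84 ± 0.749 in untreated libraries, which was higher in CNV than in untreated samples, and in BetP-Gel@Ran lower than in CNV and higher than in untreated samples (limma adjusted p = 3.06e-04, 0.0229 and 0.0306). Alb, Apob, Ahsg, Fga and Fgb were at or near 0 in every library. The part of any of these cells in the Serpina3n values was not tested.

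Clade E holds inhibitors of plasminogen activators and thrombin, of which Serpine2 and Serpine3 are described. Serpine2 encodes protease nexin-1, a thrombin and plasminogen activator inhibitor of glia and fibroblasts. It was at 6.20 ± 0.455 FPKM in BetP-Gel@Ran, 8.14 ± 0.739 in CNV and 8.37 ± 0.909 in untreated libraries. Its change was -0.38 ± 0.09 in BetP-Gel@Ran against untreated samples (limma adjusted p = 0.0139), a call lost with FPKM divided by its sum (adjusted p = 0.0762). Its change of -0.34 ± 0.09 in BetP-Gel@Ran against CNV samples (limma adjusted p = 0.0427) was lost without any 1 library of these groups other than CNV replicate 3, at adjusted p of 0.0794 to 0.140. Serpine3 was at 22.2, 8.93 and 18.4 FPKM in BetP-Gel@Ran libraries, 8.42, 18.0 and 13.1 in CNV libraries, and 5.50, 4.50 and 6.32 in untreated libraries. It was above every untreated library in both other groups, which overlapped each other. Its change was 1.36 ± 0.34 in BetP-Gel@Ran against untreated samples (limma adjusted p = 0.0153), or 0.0505 without BetP-Gel@Ran replicate 3 and 0.0516 without untreated replicate 2. In CNV against untreated samples it was 1.09 ± 0.34 (limma adjusted p = 0.0285). This second call was lost with limma voom on recovered reads (adjusted p = 0.0760) and without CNV replicate 2 (0.0966), CNV replicate 3 (0.0757), untreated replicate 1 (0.0600) or untreated replicate 2 (0.0865). Serpine3 also overlaps Ints6 on the opposite strand, and reads without strand cannot be told apart.

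**Figure D4:**
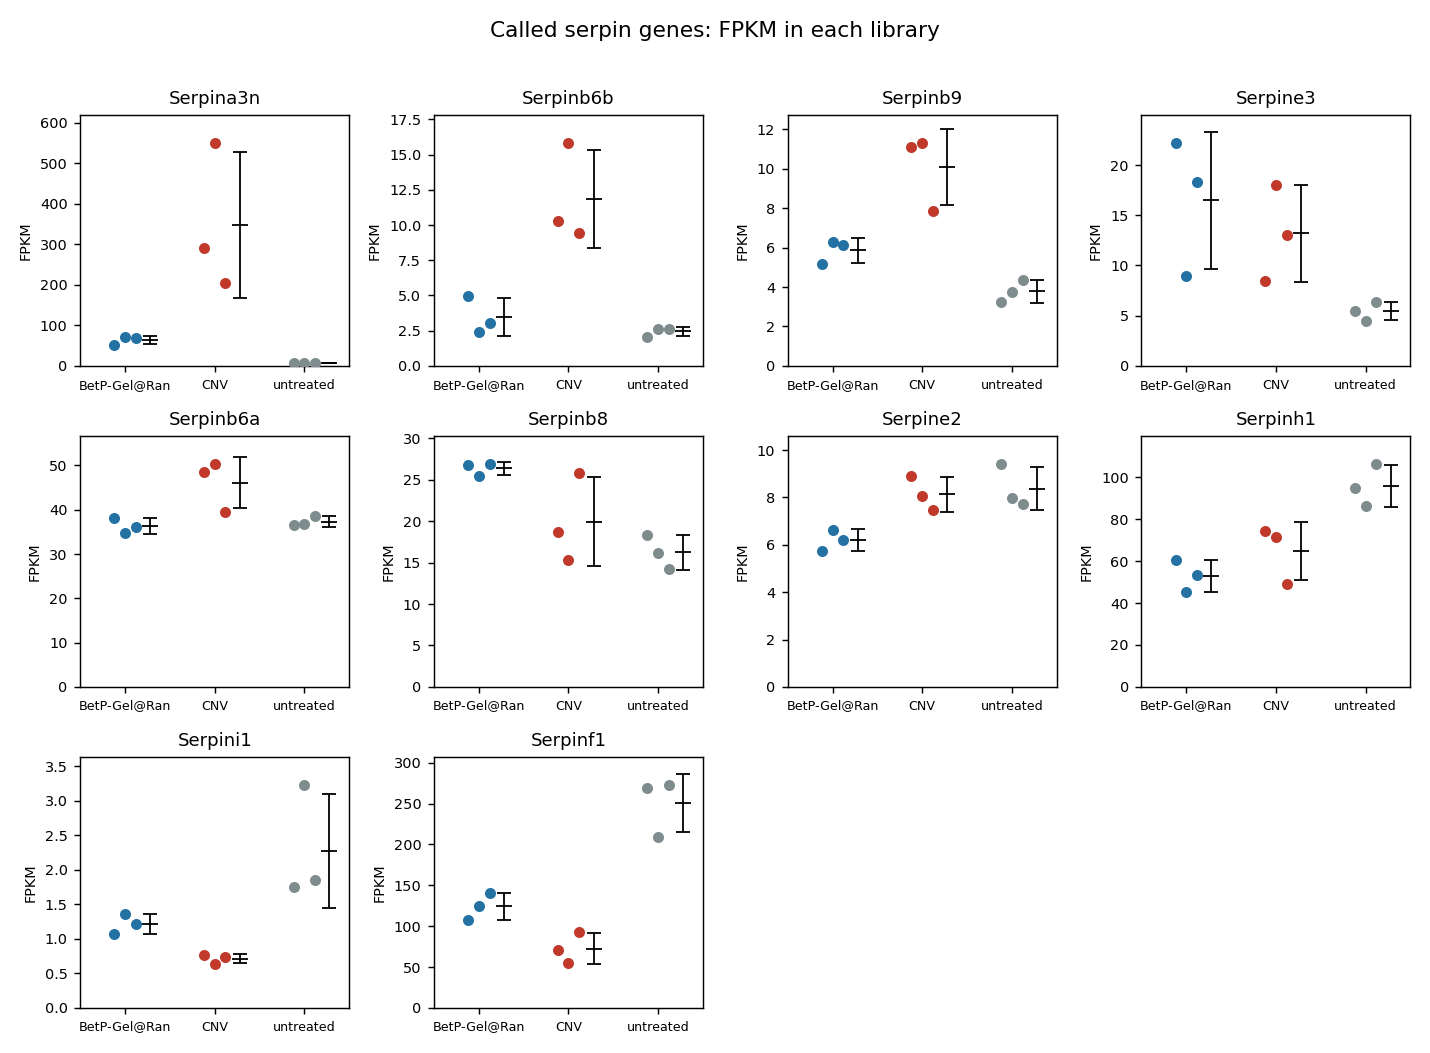
FPKM (axes from 0) of 10 serpin genes called in at least 1 comparison, in the 3 libraries of the BetP-Gel@Ran, CNV and untreated groups (points), with mean and SD beside them. Serpina3n, Serpinb6b and Serpinb9 are highest in CNV, Serpinf1 and Serpini1 lowest in CNV, and Serpine3 lowest in untreated libraries.

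Proteases and partners of the family were read beside it. In a list of 43 serpin targets, receptors and cofactors, 26 were tested, of which 14 were higher and 4 lower in CNV against untreated samples, beside 22.5% and 22.1% of all tested genes. In the list, 1 was higher and 9 lower in BetP-Gel@Ran against CNV samples, beside 5.81% and 8.27%, and 10 were higher and 4 lower in BetP-Gel@Ran against untreated samples, beside 16.1% and 18.1%. The list's medians were 0.50, -0.19 and 0.43 in these comparisons, and those of all tested genes 0.01, 0.00 and -0.01. Plat, the gene of tissue plasminogen activator, averaged 5.36 FPKM in BetP-Gel@Ran, 10.2 in CNV and 3.12 in untreated samples, and rose by 1.44 in CNV against untreated samples (limma adjusted p = 6.49e-06). Plau, which encodes urokinase, rose by 1.51 and its receptor gene Plaur by 2.24 in the same comparison. Their changes in BetP-Gel@Ran against CNV samples were -1.08 and -1.79, both called. Vtn, the gene of vitronectin, an adhesion protein of plasma and matrix, had a change of -1.01 in CNV against untreated samples and was called lower. Plg, the substrate of these activators, had no read in any library. The genes of the leukocyte proteases Elane, Ctsg, Prtn3 and Gzmb, targets of several serpins, stayed under 1 FPKM in every library, whereas Cma1, the mast cell chymase gene, rose by 1.09 in CNV against untreated samples.

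Clade B serpins lie in 2 clusters, and called genes in CNV against untreated samples came from 1 of them. On chromosome 13, from 32842092 to 34002794, 15 members were listed and 5 were tested. Of these, 3 were higher in CNV than in untreated samples, beside 22.5% of all tested genes. The same 3 were lower in BetP-Gel@Ran than in CNV samples, beside 8.27% of all tested genes. On chromosome 1, from 106861173 to 107610484, 11 members were listed and 6 tested, of which none was called in these comparisons. Over all tested genes, 22.5% were higher and 22.1% lower in the first comparison, and 5.81% and 8.27% in the second. At an unadjusted p under 0.05, Serpinb2 would pass in CNV against untreated samples, and Serpinb2, Serpinb8 and Serpinb11 in BetP-Gel@Ran against CNV samples. The difference between clusters was not tested, and 5 and 6 tested members are few for it.

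Serpinb6b and Serpinb9 rose most on chromosome 13. Serpinb6b, one of the mouse relatives of human SERPINB6, was at 4.97, 2.42 and 3.05 FPKM in BetP-Gel@Ran libraries, 10.3, 15.8 and 9.41 in CNV libraries, and 2.08, 2.64 and 2.63 in untreated libraries. Its change was 1.87 ± 0.22 in CNV against untreated samples (limma adjusted p = 2.24e-04) and -1.53 ± 0.22 in BetP-Gel@Ran against CNV samples (limma adjusted p = 0.00720). Serpinb9, an inhibitor of granzyme B that protects killer lymphocytes from their own enzyme, was at 5.14, 6.28 and 6.15 FPKM in BetP-Gel@Ran libraries, 11.1, 11.3 and 7.86 in CNV libraries, and 3.24, 3.74 and 4.38 in untreated libraries. The 3 groups did not overlap. It rose by 1.20 ± 0.14 in CNV against untreated samples (limma adjusted p = 1.99e-04) and by 0.52 ± 0.14 in BetP-Gel@Ran against untreated samples (limma adjusted p = 0.0199), the second call being lost without BetP-Gel@Ran replicate 2 or 3 or untreated replicate 1 or 2 (adjusted p of 0.0542 to 0.0725). Its change of -0.68 ± 0.14 in BetP-Gel@Ran against CNV samples (limma adjusted p = 0.0194) was lost without any 1 library of these groups other than CNV replicate 3, at adjusted p of 0.0513 to 0.0731.

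Serpinb6a and Serpinb1a were higher in level and had smaller changes. Serpinb6a, an intracellular inhibitor of cathepsin G, averaged 36.4 ± 1.78 FPKM in BetP-Gel@Ran, 46.1 ± 5.74 in CNV and 37.3 ± 1.18 in untreated libraries, with a change of 0.29 ± 0.09 in CNV against untreated samples (limma adjusted p = 0.0309). That call was lost without CNV replicate 1 (adjusted p = 0.0983) or replicate 2 (0.105) and without untreated replicate 1 (0.0848) or replicate 2 (0.0819), and the gene overlaps Nqo2 on the opposite strand. Its change of -0.33 ± 0.09 in BetP-Gel@Ran against CNV samples (limma adjusted p = 0.0480) was lost without any 1 library of these groups other than CNV replicate 3, at adjusted p of 0.0691 to 0.148. Serpinb1a, which inhibits neutrophil elastase, cathepsin G and proteinase 3, averaged 32.1 ± 4.49 FPKM in BetP-Gel@Ran, 42.7 ± 5.33 in CNV and 37.3 ± 1.25 in untreated libraries. Its change of -0.40 in BetP-Gel@Ran against CNV samples missed the threshold (limma adjusted p = 0.0504) and passed it without CNV replicate 3 (0.0336). Serpinb6c, at 0.762 to 1.99 FPKM over all libraries, was not called.

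The chromosome 1 cluster held the abundant epithelial serpins. Serpinb5, the gene of maspin, a non-inhibitory serpin of epithelia, was at 81.5 ± 3.26 FPKM in BetP-Gel@Ran, 70.1 ± 12.9 in CNV and 79.6 ± 1.56 in untreated libraries. Serpinb11 was at 58.7 ± 2.20, 46.1 ± 7.81 and 56.0 ± 8.62 FPKM in BetP-Gel@Ran, CNV and untreated libraries. Serpinb3a, related to the human squamous cell carcinoma antigens, varied widely within groups, at 25.0, 19.6 and 59.6 FPKM in BetP-Gel@Ran libraries, 61.3, 69.5 and 26.8 in CNV libraries, and 38.9, 60.6 and 43.3 in untreated libraries. None of these 3 was called in any comparison. Serpinb7, at 1.10 ± 0.347, 1.11 ± 0.259 and 1.26 ± 0.305 FPKM in the same groups, was not called either.

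Serpinb8 and Serpinb2 are the remaining genes of this cluster. Serpinb8, whose human counterpart inhibits furin, was at 26.8, 25.4 and 26.9 FPKM in BetP-Gel@Ran libraries, 18.7, 15.3 and 25.8 in CNV libraries, and 18.4, 16.2 and 14.2 in untreated libraries, and rose by 0.67 ± 0.16 in BetP-Gel@Ran against untreated samples (limma adjusted p = 0.0122). Serpinb2, the gene of plasminogen activator inhibitor 2, was at 0.875, 0.425 and 2.13 FPKM in BetP-Gel@Ran libraries, 17.6, 9.63 and 1.55 in CNV libraries, and 1.13, 1.75 and 1.21 in untreated libraries. CNV replicate 3 lay within the untreated range and the other CNV libraries above it. Its difference of 1.76 ± 0.66 in CNV against untreated samples had a limma adjusted p of 0.0607, and without CNV replicate 3 it was 2.58 (adjusted p = 9.91e-04).

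Markers of surface epithelium were called more often than these serpins, a difference that was not tested. Of 8 such markers, 2 were higher and 6 lower in CNV against untreated samples, and they summed to 13462 to 16713 FPKM in BetP-Gel@Ran, 9569 to 11187 in CNV and 18856 to 21875 in untreated libraries. Their part in the serpin values was not tested. A motif search set the clusters side by side. TGANTCA, an AP-1 site sought on both strands, was found in 6 of the 10 clade B members of chromosome 1 with a promoter, in 0 of the 14 of chromosome 13, and for 8.97% of all genes with a promoter. The 6 were Serpinb2, Serpinb5, Serpinb7, Serpinb8, Serpinb11 and Serpinb12. Over all 52 members with a promoter, 10 held the site, the rest being the clade A genes Serpina1a, Serpina1b, Serpina1c and Serpina1d. Serpinb11 (chr1:107362064-107362363, plus strand) and Serpinb8 (chr1:107589756-107590055, plus strand) are shown because each holds the site at 2 places, in capitals.
Serpinb11: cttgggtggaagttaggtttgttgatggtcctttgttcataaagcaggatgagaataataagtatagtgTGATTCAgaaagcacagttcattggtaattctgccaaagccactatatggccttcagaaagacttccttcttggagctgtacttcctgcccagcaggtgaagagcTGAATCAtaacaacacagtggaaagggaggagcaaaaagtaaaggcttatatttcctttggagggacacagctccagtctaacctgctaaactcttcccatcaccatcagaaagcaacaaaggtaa
Serpinb8: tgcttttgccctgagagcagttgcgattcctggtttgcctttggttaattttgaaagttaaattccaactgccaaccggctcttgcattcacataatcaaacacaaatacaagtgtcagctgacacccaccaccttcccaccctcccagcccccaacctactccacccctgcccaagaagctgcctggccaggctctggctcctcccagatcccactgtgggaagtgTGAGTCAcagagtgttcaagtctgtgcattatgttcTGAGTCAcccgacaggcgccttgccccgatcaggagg
A match is a string of letters and no evidence of binding.

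Serpinf1 was the highest serpin in untreated samples and fell most. The gene (ENSMUSG00000000753) lies on mm10 chromosome 11, from 75409769 to 75422701, on the minus strand. It was at 107, 125 and 140.3 FPKM in BetP-Gel@Ran libraries, 70.8, 54.7 and 92.3 in CNV libraries, and 269.5, 209.6 and 273 in untreated libraries. The groups did not overlap, with untreated libraries highest and CNV lowest. The change was -1.80 ± 0.19 in CNV against untreated samples (limma adjusted p = 1.07e-04) and -1.01 ± 0.19 in BetP-Gel@Ran against untreated samples (limma adjusted p = 0.00391). It was higher by 0.79 ± 0.19 in BetP-Gel@Ran against CNV samples (limma adjusted p = 0.0279), the only member higher there. That call was lost without BetP-Gel@Ran replicate 2 or 3 or CNV replicate 1 or 2 (adjusted p of 0.0833 to 0.0909), and in a fit of those 2 groups alone (0.0529).

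The ratio of Serpina3n to Serpinf1, both in FPKM, was 0.494, 0.563 and 0.486 in BetP-Gel@Ran libraries, 4.10, 10.1 and 2.22 in CNV libraries, and 0.0258, 0.0385 and 0.0291 in untreated libraries. Of 5 pigment epithelium markers, none was called in CNV against untreated samples and 1, Rlbp1, was lower in BetP-Gel@Ran against untreated samples (change of -0.37, limma adjusted p = 0.0220). Rlbp1 was also in the list of Müller glia and astrocyte markers, so its call is not particular to pigment epithelium. In CNV against untreated samples 4 of 5 fibroblast markers were lower, with sums of 610 to 770.4 FPKM in BetP-Gel@Ran, 433 to 583 FPKM in CNV and 903 to 1049.6 FPKM in untreated libraries. The part of fibroblasts in the Serpinf1 values was not tested. Serpinf2, the antiplasmin gene beside Serpinf1, stayed at 0.127 to 0.715 FPKM.

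Serpinh1, which encodes the collagen chaperone HSP47, was lower in both groups than in untreated samples. It was at 60.7, 45.2 and 53.2 FPKM in BetP-Gel@Ran libraries, 74.3, 71.5 and 49.1 in CNV libraries, and 94.7, 86.3 and 106 in untreated libraries. The change was -0.85 ± 0.17 in BetP-Gel@Ran against untreated samples (limma adjusted p = 0.00503) and -0.57 ± 0.17 in CNV against untreated samples (limma adjusted p = 0.0204). The second call was lost without untreated replicate 1 (adjusted p = 0.0520) or replicate 3 (0.0674).

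Serpini1, the gene of neuroserpin, a neuronal inhibitor of tissue plasminogen activator, was low. It was at 1.07, 1.36 and 1.22 FPKM in BetP-Gel@Ran libraries, 0.762, 0.641 and 0.743 in CNV libraries, and 1.75, 3.23 and 1.85 in untreated libraries, without overlap between groups. It fell by 0.91 ± 0.16 in CNV against untreated samples (limma adjusted p = 0.00143) and by 0.54 ± 0.16 in BetP-Gel@Ran against untreated samples (limma adjusted p = 0.0249). The second call was lost with FPKM divided by its sum (adjusted p = 0.0581) and without BetP-Gel@Ran replicate 1 (0.0731) or replicate 3 (0.0671). Neuron markers summed to 89.2 to 97.5 FPKM in BetP-Gel@Ran, 45.9 to 58.2 in CNV and 141 to 231 in untreated libraries, and all 4 were lower in CNV and in BetP-Gel@Ran than in untreated samples. Their part in the Serpini1 values was not tested.

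Serping1, which encodes the C1 inhibitor of complement and the contact system, stayed high. It was at 93.5, 109.6 and 116 FPKM in BetP-Gel@Ran libraries, 81.8, 79.6 and 99.5 in CNV libraries, and 102, 83.0 and 99.5 in untreated libraries. The groups overlapped and it was not called (limma adjusted p = 0.439, 0.144 and 0.336 in CNV against untreated, BetP-Gel@Ran against CNV and BetP-Gel@Ran against untreated samples). Its target genes C1ra and C1s1 rose by 0.66 and 1.00 in CNV against untreated samples.

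The plasma inhibitors of clotting were near 0. Serpinc1, the antithrombin gene, did not exceed 0.0177 FPKM, and Serpind1, the gene of heparin cofactor II, did not exceed 0.339 FPKM. Of the 28 members below the filter with any read, 11 had at most 3 reads in each library, and the highest value was 2.26 FPKM, for Serpinb12 in BetP-Gel@Ran replicate 3. That library also held the highest value of Serpinb3b, at 0.767 FPKM. Serpina1b had 99 reads over the BetP-Gel@Ran libraries, 59 over the CNV libraries and 39 over the untreated libraries, while Serpina1a and Serpina1c had none. Of the words of each gene from Serpina1a to Serpina1e, 44.7% to 82.2% are also present in another gene, so the values listed for single copies are uncertain.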

How the data were processed

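The authors deposited 1 table of FPKM per gene for 9 libraries, with gene lengths in bases. Per the labels' protocols, RNA was extracted with Trizol, poly-T selected and made into libraries with a NEBNext Ultra kit, which does not mark strand. Per the submitters' processing notes, HTSeq 0.6.0 and the mm10 build were used. No aligner is named in the sources used here. Dividing FPKM times gene length by the value of 1 read in that library gave whole reads (100% of values within 0.05). The library size implied by that value was not the sum of reads on genes. It was above that sum in every CNV library, with 1.98e+07 against 18753737 in replicate 1. It was below it in untreated replicates 1 and 3, with 1.61e+07 against 17055610 in replicate 3. What sets it was not stated, and small changes depend on it. Coordinates of all 61 members were identical to GENCODE M21 (GRCm38).

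log2(FPKM + 1) was kept for 14086 genes reaching 1 FPKM in 3 or more libraries and fitted with limma 3.58.1 (R 4.3.3, statmod 1.5.0), with trend and robust options, all 9 libraries and no covariate, and tested on simulated data. p-values were two-sided and adjusted over all genes tested. No exact permutation test was run, since with 3 libraries a group its smallest p is 0.10. Replicates differed beyond counting error (chi-square per gene of 7.79 to 40.1). Floors cover counting error only.

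Every tested member and all clade A members could be named, save 1 tested member that is counted but not reported here, other members by count and range, and up to 4 called genes of each list per comparison, with a few more named after their values were seen. Members and lists were chosen with earlier results of these data known. The alternatives tried were no filter, a pseudocount of 0.1, a filter of 5 FPKM, limma voom on recovered reads, FPKM divided by its sum, a fit of 2 groups, no trend or robust options, the replicate number as a block and each library left out.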

Additional observations from a re-analysis of the deposited data

How the results depend on the processing

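The direction of every called serpin held under all alternatives run, and Serpina3n and Serpinb6b kept their calls in CNV against untreated and in BetP-Gel@Ran against CNV samples under all of them. In BetP-Gel@Ran against CNV samples, 0 serpins were higher with no filter and in a fit of the 2 groups alone. With 1 library left out there, 0 to 4 were higher and 3 to 10 lower, the most without CNV replicate 3 and 3 lower without any 1 of the others. In BetP-Gel@Ran against untreated samples, 2 were lower with FPKM divided by its sum, and 2 to 5 higher with 1 library left out, fewest without BetP-Gel@Ran replicate 3 or untreated replicate 2. In CNV against untreated samples, 4 to 6 were higher and 2 to 4 lower with 1 library left out, and 7 were higher without trend and robust options. The cause was not tested. Counts over all genes also moved in BetP-Gel@Ran against CNV samples, where 818 genes were higher and 1165 lower. They were 263 and 590 with no filter, 537 and 652 with 2 groups, and 126 to 1457 and 320 to 1758 with 1 library left out (fewest without CNV replicate 1, most without CNV replicate 3). Against untreated samples, a filter of 5 FPKM gave 1735 higher genes in CNV (3166 without it) and 1337 in BetP-Gel@Ran (2265), and FPKM divided by its sum gave 1555 lower genes in BetP-Gel@Ran (2548), where 1438 were higher without BetP-Gel@Ran replicate 3. Uncalled members changed sign. With FPKM divided by its sum, Serpine2 was at 0.029 in CNV against untreated, Serpinb7 at 0.0024 in BetP-Gel@Ran against CNV and Serpinb6a at 0.052 in BetP-Gel@Ran against untreated samples. With 1 library left out, changes ran from -0.20 to 0.47 for Serpinb3a and -0.10 to 0.044 for Serpine2 in CNV against untreated, from -0.15 to 0.20 for Serpinb6c and -0.14 to 0.090 for Serpinb7 in BetP-Gel@Ran against CNV, and from -0.52 to 0.045 for Serpinb2 and -0.038 to 0.18 for Serpinb11 in BetP-Gel@Ran against untreated samples. Libraries of the same replicate number did not deviate together (correlation of -0.15 to 0.08 over 9 pairs). The correlation cannot exclude pairing, since a weak shared effect would not show beside larger differences of single libraries. With the replicate block, 523 genes were higher in BetP-Gel@Ran against CNV samples, and 5 serpins were higher and 3 lower in CNV against untreated, 1 and 4 in BetP-Gel@Ran against CNV, and 4 and 4 in BetP-Gel@Ran against untreated samples. Depth limits the 41 untested members.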

Other observations

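Another 7 rows of the table carry serpin names but are annotated as pseudogenes. Of these, Serpinb10, listed as a polymorphic pseudogene, passed the filter. It was at 1.47, 1.78 and 2.11 FPKM in BetP-Gel@Ran libraries, 2.53, 2.48 and 2.17 in CNV libraries, and 0.658, 1.00 and 0.604 in untreated libraries. The values did not overlap between groups. Its change was 0.96 ± 0.12 in CNV against untreated samples (limma adjusted p = 2.59e-04) and 0.67 ± 0.12 in BetP-Gel@Ran against untreated samples (limma adjusted p = 0.00310). In BetP-Gel@Ran against CNV samples it was -0.29 and not called (limma adjusted p = 0.130). It overlaps Serpinb2 by 6476 bases on the same strand, and its level was higher in all BetP-Gel@Ran libraries than in all untreated libraries, whereas the levels of Serpinb2 overlapped between these groups.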
